A study of Mus musculus with 41 samples.

Results

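The genes described here drive DNA replication and mitosis in sorted cells of the mouse thymus. Of 52 genes on the list, 42 had a probe assigned to that gene alone, of 13283 genes in all. They comprised 20 replication genes, 19 mitosis genes and 3 genes of chromatin and the nuclear lamina (Hmgb2, Dek and Lmnb1). Where a gene had several probes, the one with the highest mean was used. Ccne2, Chek1, Ccna2, Ccnb1, Ccnb2, Bub1, Ube2c, Cenpe, Kif20a and Racgap1 were not analysed here, and Pcna was measured in the non-epithelial cells alone.

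Thymic cells of male C57Bl/6 mice had been sorted into CD45- EpCAM+ epithelial cells (TEC) and CD45- EpCAM- non-epithelial stromal cells (nonTEC), and their RNA was hybridised to 41 Illumina bead arrays. In each fraction there were unoperated middle-aged mice (Aged, 9 to 12 months), unoperated young mice (Young, 5 to 6 weeks), and middle-aged mice that had been castrated (Cx) or sham-operated (ShCx) 4 or 7 days earlier. TEC were also taken at day 20, and nonTEC at day 20 were not analysed here. Each of the 14 groups had 3 arrays, except sham nonTEC at day 7 with 2. Whether a group's arrays stem from different mice is not stated in the labels. The p-values below therefore measure the spread between arrays, which may be partly technical. All mice carry the C57Bl/6 background, with no transgene or deletion named.

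A cell that enters the cycle first licenses its origins by loading the MCM helicase with the help of Cdc6 and Cdt1, and then, at the G1/S boundary, cyclins D and E release E2F factors that switch on the genes for the replication fork and for nucleotide supply. Later, in G2 and M, Foxm1 and Mybl2 act with the MuvB complex on a different set of promoters, among them those of the kinases Cdk1, Aurka, Aurkb and Plk1, of the spindle checkpoint and of the cytokinesis machinery. In the thymus, stromal cells divide during growth in youth, the organ shrinks with age, and removal of sex steroids by castration is followed by transient regrowth.

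The 2 classes differed in the share of promoters that hold certain letters, as a description with no test. Promoter windows, from 250 bases before the annotated start to 50 after it, were taken from RefSeq (GRCm38.p6) and searched on both strands for E2F letters (TTGGCGC as well as TTCGCGC, and also TTCCCGC as well as TTGCCGC), for the cell cycle homology region, CHR (TTTGAA or TTCGAA), and for the CCAAT box. The table matched 18 replication genes with 21 windows, 15 mitosis genes with 16 windows and 2 chromatin genes with 2 windows. E2F letters stood in 61.9% of the replication windows and in 12.5% of the mitosis windows, against 9.57% of all 32841 windows in the table. CHR letters stood in 19% of the replication windows and in 75.0% of the mitosis windows, against 19.2% of all windows. CCAAT stood in 71.4% of the replication windows and in 75.0% of the mitosis windows, against 37.4% of all. CHR and CCAAT were found together in 75.0% of the mitosis windows, against 7.52% of all. A match is a description of letters and not a binding site. The windows of the replication genes Tk1 and Mcm6 and of the mitosis genes Cdk1 and Kif23 are shown because these genes had the smallest p-values of their class with age in nonTEC. Capitals mark the E2F, CHR and CCAAT letters on either strand, and some E2F matches in Mcm6 overlap because both strands match.
Tk1, chr11:117825965-117826264, minus strand: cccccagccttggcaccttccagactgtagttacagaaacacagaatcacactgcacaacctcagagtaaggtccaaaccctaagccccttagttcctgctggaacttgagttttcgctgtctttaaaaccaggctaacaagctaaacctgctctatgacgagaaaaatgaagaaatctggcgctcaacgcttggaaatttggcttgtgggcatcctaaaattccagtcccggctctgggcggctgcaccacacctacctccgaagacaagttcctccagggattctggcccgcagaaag
Mcm6, chr1:128359656-128359955, minus strand: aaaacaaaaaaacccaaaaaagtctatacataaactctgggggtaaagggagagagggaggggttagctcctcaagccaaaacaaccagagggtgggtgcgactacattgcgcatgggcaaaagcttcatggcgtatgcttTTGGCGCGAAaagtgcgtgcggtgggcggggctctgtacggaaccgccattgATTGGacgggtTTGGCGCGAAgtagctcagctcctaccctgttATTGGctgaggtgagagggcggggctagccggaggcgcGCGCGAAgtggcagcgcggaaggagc
Cdk1, chr10:69352863-69353162, minus strand: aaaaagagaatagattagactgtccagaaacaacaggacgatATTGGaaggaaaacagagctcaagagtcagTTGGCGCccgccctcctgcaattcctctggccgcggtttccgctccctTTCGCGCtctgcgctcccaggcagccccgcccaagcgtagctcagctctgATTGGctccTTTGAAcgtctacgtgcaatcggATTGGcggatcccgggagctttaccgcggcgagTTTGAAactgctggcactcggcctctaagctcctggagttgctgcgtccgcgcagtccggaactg
Kif23, chr9:61946750-61947049, minus strand: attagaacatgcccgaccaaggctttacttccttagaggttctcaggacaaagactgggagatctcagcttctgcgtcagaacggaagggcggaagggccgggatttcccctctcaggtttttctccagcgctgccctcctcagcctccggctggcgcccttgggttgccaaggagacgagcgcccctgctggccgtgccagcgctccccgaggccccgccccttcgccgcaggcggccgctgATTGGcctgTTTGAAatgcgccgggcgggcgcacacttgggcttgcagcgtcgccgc
Mcm6 held 5 E2F matches, some of them overlapping, and 2 CCAAT matches. Cdk1 held 2 E2F, 2 CHR and 3 CCAAT matches, and Kif23 held 1 CHR and 1 CCAAT match. The Tk1 window held none of these letters.

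All values are normalized log intensities as deposited. Their base was not given in the sources used here and was read as 2 from their range, and differences are on the log2 scale, from limma fits across all genes of a fraction with Benjamini-Hochberg adjustment, called at an adjusted p under 0.05. Errors after ± are standard errors of the fit. Every measured gene was tested, with no filter on dim probes, and 36 of the 42 genes in nonTEC and 35 of the 41 in TEC had a group mean above the median of all values, 6.73. Array medians lay between 6.68 and 6.82. Keratin 8 (Krt8), an epithelial keratin, ranged from 12.7 to 13.7 on the TEC arrays, against 7.02 to 10.7 on the nonTEC arrays. The fibroblast receptor Pdgfra ranged from 4.78 to 9.11 on the TEC arrays, against 12.2 to 13.3 on the nonTEC arrays, and decorin (Dcn), a matrix proteoglycan of fibroblasts, from 9.91 to 12.9 on the TEC arrays, against 13.9 to 14.6 on the nonTEC arrays. Foxn1, the defining transcription factor of TEC, stayed low on the TEC arrays at 4.43 to 5.86. Markers of thymocytes, which both sorts gated out, read unevenly. Cd3e, a subunit of the T-cell receptor complex, ranged from 4.80 to 10.6 on the TEC arrays, against 8.04 to 11.5 on the nonTEC arrays, where it was above the median on every array. Rag1, a recombinase of immature lymphocytes, ranged from 4.53 to 7.70 on the TEC arrays, against 5.61 to 8.67 on the nonTEC arrays. Cd4, a co-receptor of T cells, stayed below the array medians at 4.47 to 6.56 on the nonTEC arrays, as did Ptprc, which encodes CD45, at 4.38 to 5.73, and neither was measured in TEC. In TEC, the 6 day-20 arrays stood apart on the first principal component, and Aged array 3 and CxD4 arrays 2 and 3 at one end of the second, with Aged array 2 at the other end. ShCxD4 array 3 stood apart in its thymocyte mean, at 9.27. It also held the highest TEC means of fibroblast markers (8.35), endothelial markers (7.89) and mitosis genes (8.34). Results are given below with and without 4 TEC arrays set apart with earlier results of these data known, namely Aged array 3, CxD4 arrays 2 and 3 and ShCxD4 array 3. In bulk RNA, fewer dividing cells and less RNA of these genes per cell cannot be told apart.

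**Figure D1:**
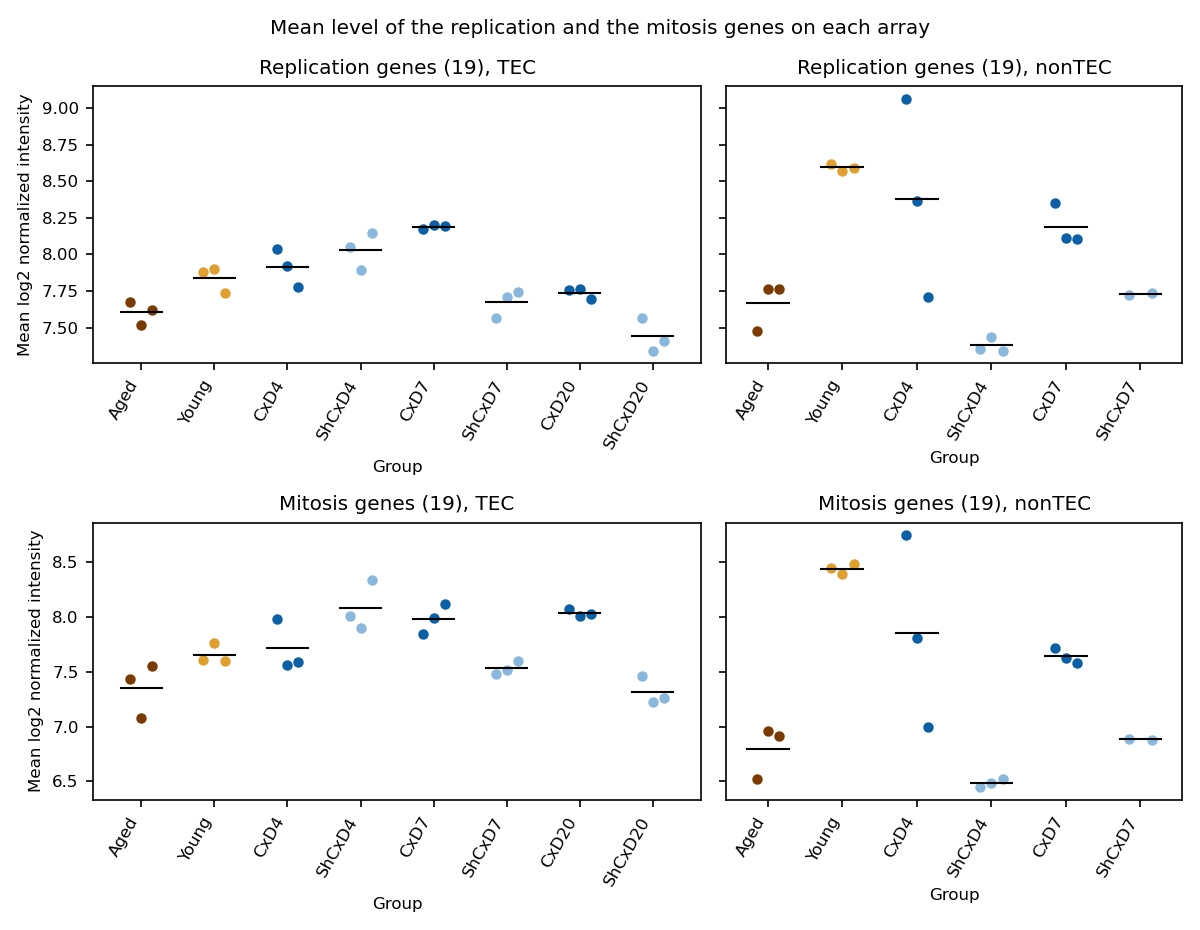
Mean log2 normalized intensity (y axis) of the 19 replication genes (top) and the 19 mitosis genes (bottom) measured in both fractions, on every array, by group (x axis) in TEC (left) and nonTEC (right). Points are arrays and black lines group means. In nonTEC the 3 Aged arrays lie between 6.52 and 6.96 for mitosis genes, against 8.38 to 8.48 on the 3 Young arrays, and the 3 CxD4 arrays spread from 7.00 to 8.74, against 6.45 to 6.52 on the ShCxD4 arrays.

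With age, genes of every functional group fell in nonTEC. In Aged nonTEC compared with Young nonTEC, 32 of the 42 genes fell and 0 rose, where 12.5% of the 11704 genes tested fell and 24.1% were called in either direction. The median difference was -1.23, beside 0.01 over all genes. Of the mitosis genes 18 of 19 fell, with a median of -1.56, and of the replication genes 12 of 20 fell, with a median of -0.81. The difference between the classes was not tested.

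Among the mitosis genes, all 5 measured kinases fell, as did the 3 checkpoint genes, the 4 centromere and chromosome genes and the 5 spindle and cytokinesis genes. Cdk1, the kinase that triggers mitotic entry, read 5.19, 6.01 and 5.90 on the Aged nonTEC arrays, against 8.64, 8.70 and 8.77 on the Young arrays. The groups did not overlap, and the difference of -3.0 ± 0.32 was the largest of any member (adjusted p = 4.62e-06). Topoisomerase IIα (Top2a), which untangles sister chromatids, read 6.33, 6.92 and 6.27 on the Aged arrays, against 8.71, 9.22 and 9.33 on the Young arrays. Top2a fell by 2.58 ± 0.42 (adjusted p = 0.000263). Aurkb, the kinase of the chromosomal passenger complex, fell by 2.15 ± 0.31 (adjusted p = 9.05e-05), and Pbk, a mitotic MAPKK-like kinase, fell by 2.16 ± 0.32 (adjusted p = 0.000117). Kif23, a kinesin of the central spindle, fell by 2.08 ± 0.24 (adjusted p = 1.24e-05), and its other 2 probes gave -2.0 and -2.20. The other probes of Top2a, Tk1 and Lmnb1, which were dim, gave -0.47, -0.46 and -0.23, and none of these passed in a fit of all probes. Mybl2 was the mitosis gene that did not pass, at -0.69 ± 0.34 (adjusted p = 0.155).

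Among the replication genes, 5 of the 9 licensing and helicase genes fell, all of them MCM subunits, with the largest differences for Mcm6 (-1.42 ± 0.23, adjusted p = 0.000263) and Mcm7 (-1.20 ± 0.24, adjusted p = 0.00125). Mcm5 read 8.77, 8.89 and 8.87 on the Aged arrays, against 10.04, 9.98 and 9.74 on the Young arrays, a fall of 1.08 ± 0.33 (adjusted p = 0.0213). Mcm4 stood at 0.43 ± 0.17 (adjusted p = 0.0730), the only replication gene above 0. The loaders Cdc6 (-0.25 ± 0.26) and Cdt1 (-0.32 ± 0.27) and the helicase partner Cdc45 (-0.45 ± 0.23) did not pass. Of the 7 genes for nucleotide supply and the fork, 5 fell. Thymidine kinase (Tk1) read 5.71, 6.10 and 6.48 on the Aged arrays, against 8.42, 8.40 and 8.22 on the Young arrays, without overlap and with a difference of -2.25 ± 0.31 (adjusted p = 5.83e-05). Pclaf, a partner of PCNA at the fork, read 5.40, 6.61 and 6.37 on the Aged arrays, against 8.54, 8.55 and 8.53 on the Young arrays, a fall of 2.41 ± 0.43 (adjusted p = 0.000601). Pcna itself, the sliding clamp, was dim and stood at -0.60 ± 0.27 (adjusted p = 0.109). Among the G1/S regulators, cyclin D1 (Ccnd1) fell by 0.66 ± 0.13 (adjusted p = 0.00144) and E2f2 by 1.40 ± 0.37 (adjusted p = 0.00987), whereas Ccne1 (-0.42 ± 0.28) and E2f1 (-0.18 ± 0.24) did not pass. Of the chromatin genes, Hmgb2, a DNA-bending protein, fell by 1.11 ± 0.36 (adjusted p = 0.0282), and Lmnb1, which encodes lamin B1, fell by 1.21 ± 0.26 (adjusted p = 0.00251). Dek stood at 0.02 ± 0.22.

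Other genes of the same processes, taken as a list that holds no member, gave 10 of 31 replication genes lower and 0 higher, and 26 of 39 mitosis genes lower and 0 higher. Among them were Chaf1a, a histone chaperone subunit at the fork (-1.38 ± 0.27, adjusted p = 0.00114), Pole, the leading-strand polymerase (-1.03 ± 0.22, adjusted p = 0.00218), the spindle gene Knstrn (-1.70 ± 0.21, adjusted p = 2.13e-05) and the kinetochore gene Spc25 (-1.86 ± 0.29, adjusted p = 0.000201). The list medians were -0.30 for replication and -1.15 for mitosis.

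Markers of immune cells and of fibroblasts fell in the same comparison. Of the markers measured, 9 of 12 for thymocytes, 7 of 8 pan-leukocyte, 5 of 6 B-lineage and 8 of 9 myeloid genes fell, as did 4 of 8 epithelial and 3 of 6 fibroblast genes. The fibroblast mean ranged from 11.54 to 12.11 on the Aged arrays, against 12.30 to 12.63 on the Young arrays, without overlap. The mean of the 8 thymocyte markers measured in both fractions ranged from 7.28 to 8.04 on the Aged arrays, against 8.89 to 9.79 on the Young arrays, and the pan-leukocyte mean from 7.67 to 8.67 on the Aged arrays, against 10.21 to 10.40 on the Young arrays. With the thymocyte mean as a covariate, 4 of the 32 genes were still called: Cdk1 (-1.82), Kif23 (-1.95), Foxm1 (-1.17) and Ccnd1 (-0.74). With the pan-leukocyte mean, 0 were called, the sign turned for 20 of the 32 and the median of the members was 0.43, and with the B-lineage mean, chosen after seeing the data, 0 were called and the median was -0.68. A covariate that itself differs between the groups takes up part of the group difference by construction, so these fits do not say which cells the difference came from, and the part of immune cells and fibroblasts in the result was not tested further. Leaving out 1 array at a time left 22 to 31 genes called, and 22 of the 32 were called in every such fit.

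**Figure D2:**
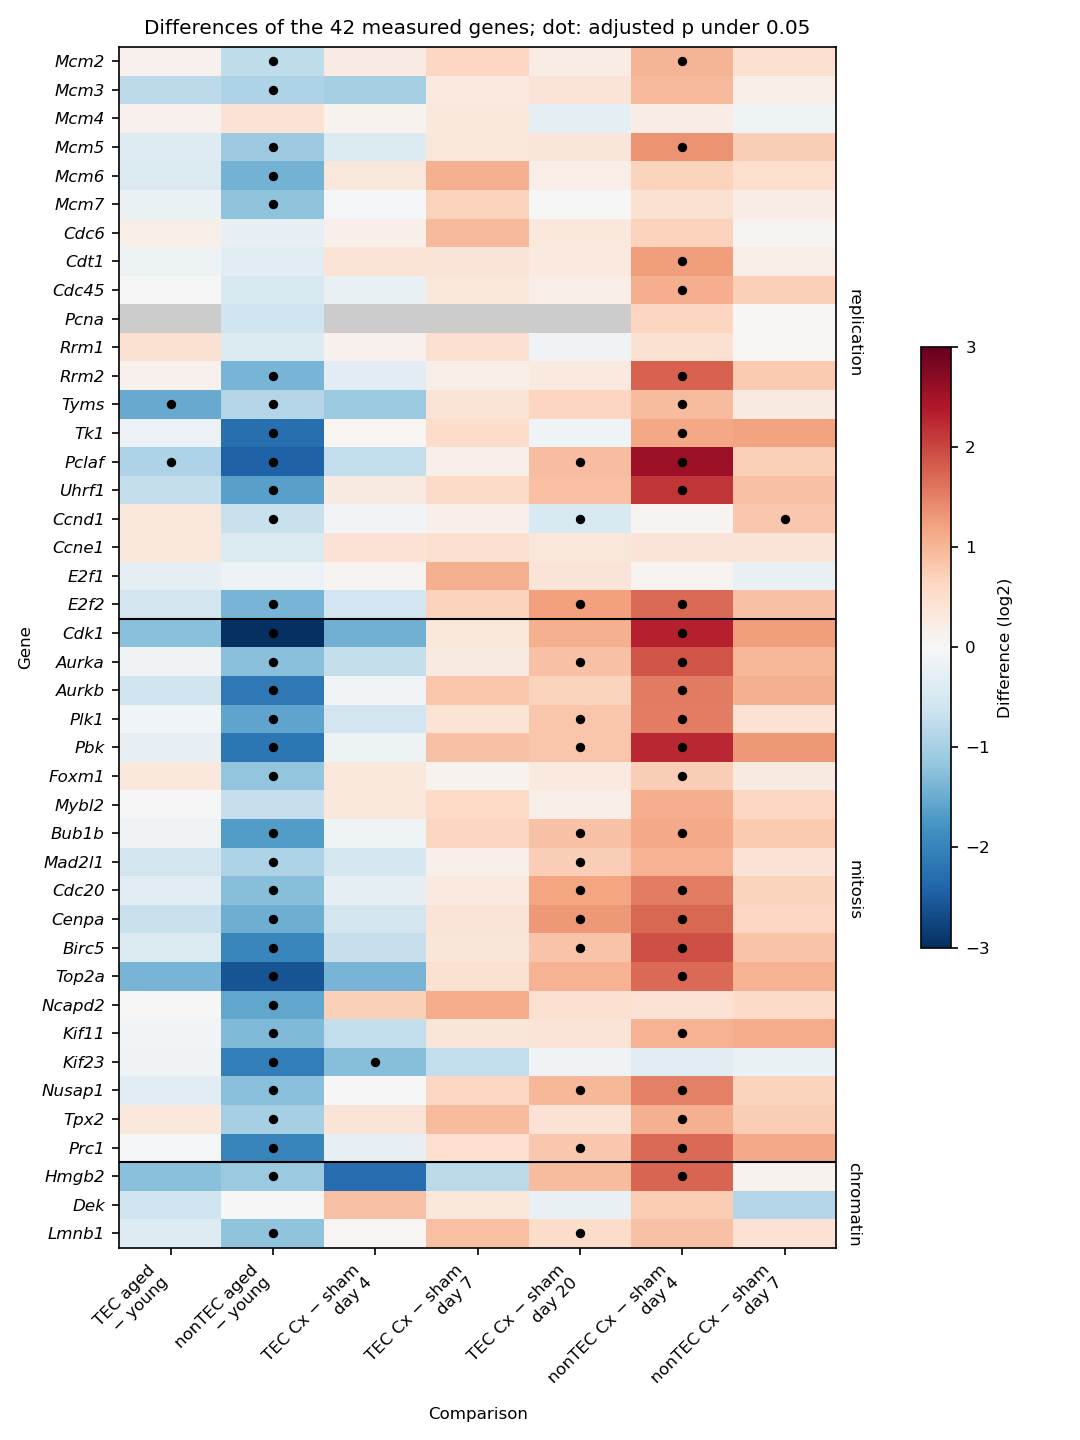
Differences (log2, colour) of the 42 measured genes (rows, by class) in 7 comparisons (columns), each Aged minus Young or castrated minus sham. Black dots mark an adjusted p under 0.05 and grey marks Pcna, which has no value in TEC. The Aged nonTEC column is below 0 for 40 of 42 genes and carries 32 dots. The Aged TEC column carries 2 dots.

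In TEC the same age comparison gave few calls, at a share of members near that of all genes. In Aged TEC compared with Young TEC, 2 of 41 genes fell and 0 rose, where 4.55% of the 12176 genes tested fell, 8.08% rose and 12.6% were called in either direction. Both were replication genes: Pclaf (-0.92 ± 0.28, adjusted p = 0.0385) and thymidylate synthase, Tyms (-1.51 ± 0.48, adjusted p = 0.0452). The median over the members was -0.20, beside 0.04 over all genes. Of the 17 genes with several probes, 5 had probes of opposite sign (Ccnd1, Foxm1, Ncapd2, Tk1 and Top2a). No call was shared by all fits that left out 1 array. Leaving out Aged array 1 gave 4 calls, Aged array 2 gave 0, Aged array 3 gave 3, Young array 1 or 2 gave 0, and Young array 3 gave 1.

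The Aged TEC arrays did not read alike. Cdk1 read 7.88, 7.45 and 6.58 on the Aged TEC arrays, against 8.73, 8.40 and 8.57 on the Young arrays, a difference of -1.27 ± 0.43 (adjusted p = 0.0594). Top2a read 7.30, 6.87 and 4.53 on the Aged arrays, against 8.02, 7.71 and 7.14 on the Young arrays, at -1.39 ± 0.63 (adjusted p = 0.154). Aged array 3 and CxD4 arrays 2 and 3 held the 3 lowest values of Cdk1, Top2a, Mcm3 and Hmgb2 among all 24 TEC arrays. On these 3 arrays the mitosis gene Prc1, which bundles central spindle microtubules, read 9.48, 9.66 and 9.68, inside the range of the other TEC arrays. Without the 4 arrays set apart, 10 genes were called, 9 lower and 1 higher. The 9 included Cenpa (-0.89), Uhrf1 (-1.23) and Cdk1 (-0.90), and the 1 higher was Ccnd1 (0.39). The Aged group then held 2 arrays and the CxD4 group 1, which is assumed to vary like the other groups. With the sham-operated TEC arrays as the older group, 0 were called. Mcm5 stood at -0.39 ± 0.16 (adjusted p = 0.124) and Ccnd1 at 0.32 ± 0.13 (adjusted p = 0.117). Of the other replication genes, 1 of 30 fell (Pold1, a subunit of the lagging-strand polymerase, at -0.46 ± 0.14, adjusted p = 0.0302), and of the other mitosis genes 0 of 39 were called, where 1 had an unadjusted p under 0.05. Pan-leukocyte markers fell for 3 of 6 genes and myeloid markers for 3 of 7, whereas 0 of 8 thymocyte markers fell and 1 rose. Erythroid markers fell for 3 of 4 genes, with a mean of 8.47 to 9.08 on the Aged arrays, against 9.48 to 9.91 on the Young arrays. Immediate early genes, which respond to stress and cell handling, rose for 6 of 11, with a mean of 11.38 to 11.98 on the Aged arrays, against 10.75 to 11.21 on the Young arrays. The part of these cells and genes in the result was not tested.

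The age difference was itself compared between the fractions, as the change in TEC minus the change in nonTEC. For 14 of 41 genes this value was above 0 and passed the test, and for 0 it was below 0 and passed, where 6.26% of the 10543 genes measured in both fractions were higher, 2.74% were lower and 9% were called. There were 4 replication and 10 mitosis genes. The values were 2.08 ± 0.38 for Tk1 (adjusted p = 0.000580), 0.98 ± 0.19 for Ccnd1 (adjusted p = 0.000936), 1.96 ± 0.39 for Prc1 (adjusted p = 0.00146) and 1.51 ± 0.30 for Foxm1, a transcription factor of G2 and M genes (adjusted p = 0.00142). The kinase Pbk stood at 1.92 ± 0.40 (adjusted p = 0.00198), Kif23 at 1.98 ± 0.42 (adjusted p = 0.00240), Rrm2 at 1.53 ± 0.45 (adjusted p = 0.0293) and Mcm7 at 1.0 ± 0.32 (adjusted p = 0.0437). Tk1 read 7.63, 8.43 and 7.90 on the Aged TEC arrays, against 8.10, 8.26 and 8.13 on the Young TEC arrays, so that the groups overlapped in TEC and not in nonTEC. The probes of Tk1, Ccnd1, Foxm1 and Ncapd2, all among the genes that passed, differed in sign with age in TEC. Their other probes were not tested singly for the difference between the fractions. Cdk1, at 1.73 ± 0.58, did not pass (adjusted p = 0.0564), nor did Mcm5 at 0.69 ± 0.39 (adjusted p = 0.272) or Top2a at 1.20 ± 0.84 (adjusted p = 0.395). A difference between the fractions was thus not shown for these 3 genes. With the B-lineage covariate 0 were called. Without single arrays the count fell to 8 (TEC Young array 3) or to 9 (TEC Young array 2, nonTEC Aged array 1, nonTEC Young arrays 1 and 3).

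**Figure D3:**
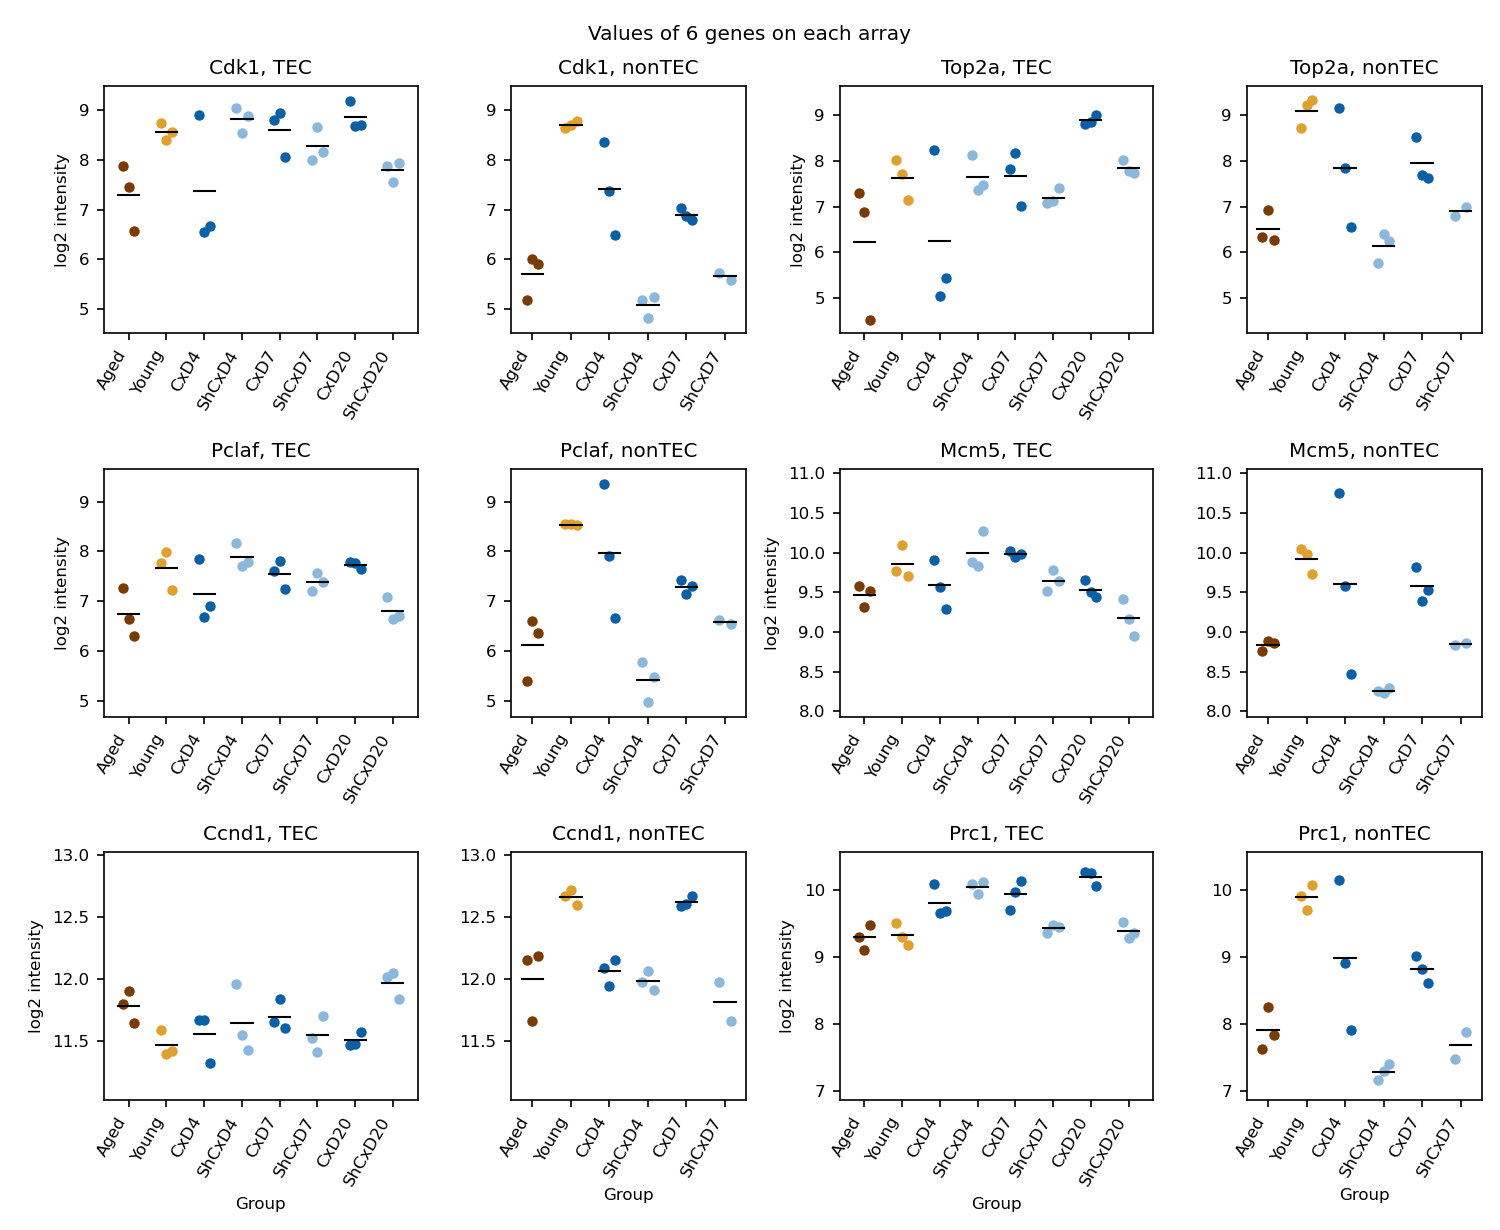
Log2 normalized intensity (y axis) of Cdk1, Top2a, Pclaf, Mcm5, Ccnd1 and Prc1 on every array, by group (x axis), with TEC left and nonTEC right for each gene. Points are arrays and black lines group means. For Cdk1 the Aged nonTEC arrays lie at 5.19 to 6.01, against 8.64 to 8.77 on the Young nonTEC arrays, and in nonTEC Ccnd1 is higher on the CxD7 arrays than on the ShCxD7 arrays, whereas its CxD4 and ShCxD4 arrays overlap.

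At 4 days after castration, replication and mitosis genes were higher in nonTEC. In CxD4 nonTEC compared with ShCxD4 nonTEC, 26 of 42 genes rose and 0 fell, where 1.97% of all genes tested rose, 2.37% fell and 4.33% were called. Of 20 replication genes 10 rose, with a median of 0.97, of 19 mitosis genes 15 rose, with a median of 1.53, and of the chromatin genes Hmgb2 rose (1.74 ± 0.36, adjusted p = 0.0104). The median over the members was 1.08, beside -0.03 over all genes.

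By role, all 5 mitotic kinases, 5 of the 7 nucleotide and fork genes and 4 of the 9 licensing and helicase genes rose. Cdk1 read 8.35, 7.38 and 6.50 on the CxD4 arrays, against 5.19, 4.81 and 5.25 on the ShCxD4 arrays, a rise of 2.33 ± 0.32 or 5.03-fold (adjusted p = 0.000790). The groups did not overlap, but the castrated arrays spread over a wider range than the sham arrays. Pclaf read 9.35, 7.91 and 6.66 on the CxD4 arrays, against 5.77, 4.99 and 5.47 on the ShCxD4 arrays, and rose by 2.56 ± 0.43 (adjusted p = 0.00415). The standard deviation of Pclaf was 1.35 on the CxD4 arrays, against 0.40 on the ShCxD4 arrays, and that of Mcm5 was 1.14, against 0.03. Errors and p-values here rest on a spread shared by all nonTEC groups, so they do not measure the wider spread of the CxD4 arrays. With only the arrays compared in the fit, 7 members were called. Uhrf1, which carries DNA methylation through replication, rose by 2.15 ± 0.37 (adjusted p = 0.00422), and Rrm2, the regulated subunit of ribonucleotide reductase, by 1.77 ± 0.38 (adjusted p = 0.0148). Cdc45 rose by 1.08 ± 0.23 (adjusted p = 0.0141), although it had not passed with age. Pbk rose by 2.27 ± 0.32 (adjusted p = 0.00109), Cenpa, the centromeric histone, by 1.71 ± 0.29 (adjusted p = 0.00415) and Aurka, the spindle-pole kinase, by 1.89 ± 0.35 (adjusted p = 0.00647). Top2a rose by 1.70 ± 0.42 (adjusted p = 0.0278), where its dim other probe gave 0.30 and did not pass, and Mcm5 rose by 1.34 ± 0.33 (adjusted p = 0.0268). Ccnd1 (0.08 ± 0.13), E2f1 (0.09 ± 0.24) and Pcna (0.65 ± 0.27, adjusted p = 0.182) did not pass. The chosen Kif23 probe stood at -0.34 ± 0.24, whereas its other 2 probes gave 1.81 and 1.27, both with an adjusted p under 0.05 in a fit of all probes. Of the other replication genes, 2 of 31 rose, Gins2 (1.01 ± 0.25, adjusted p = 0.0268) and Rpa2 (0.76 ± 0.20, adjusted p = 0.0373), which act at the helicase and on single-stranded DNA. Of the other mitosis genes, 13 of 39 rose, among them Knstrn (1.65 ± 0.21, adjusted p = 0.000523) and Cdca8, a passenger complex subunit (1.94 ± 0.39, adjusted p = 0.00961).

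The castrated nonTEC arrays differed among themselves together with the thymocyte markers. The mean over the mitosis genes was 8.74, 7.80 and 7.00 on CxD4 arrays 1, 2 and 3, against 6.45, 6.49 and 6.52 on the ShCxD4 arrays. The mean over the thymocyte markers was 9.79, 8.82 and 8.07 on the same CxD4 arrays, against 7.42, 7.53 and 7.14 on the ShCxD4 arrays. Both means were highest on array 1 and lowest on array 3 of the castrated group. Of the markers, 8 of 12 thymocyte, 5 of 8 pan-leukocyte and 4 of 8 epithelial genes rose, and 0 of 6 B-lineage genes were called. With the thymocyte or the pan-leukocyte mean as a covariate, 0 members were called, as were 0 of all genes, and the member medians were 0.23 and 0.12. With the B-lineage mean 26 were called. The part of thymocytes in the result was not tested further. The count was 6 without ShCxD4 array 3, 7 without CxD4 array 1, 13 without ShCxD4 array 2, 14 without CxD4 array 2, 17 without ShCxD4 array 1 and 33 without CxD4 array 3. Cdk1, Pbk, Cenpa, Pclaf, Uhrf1 and Prc1 were called in all 6 of these fits.

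**Figure D4:**
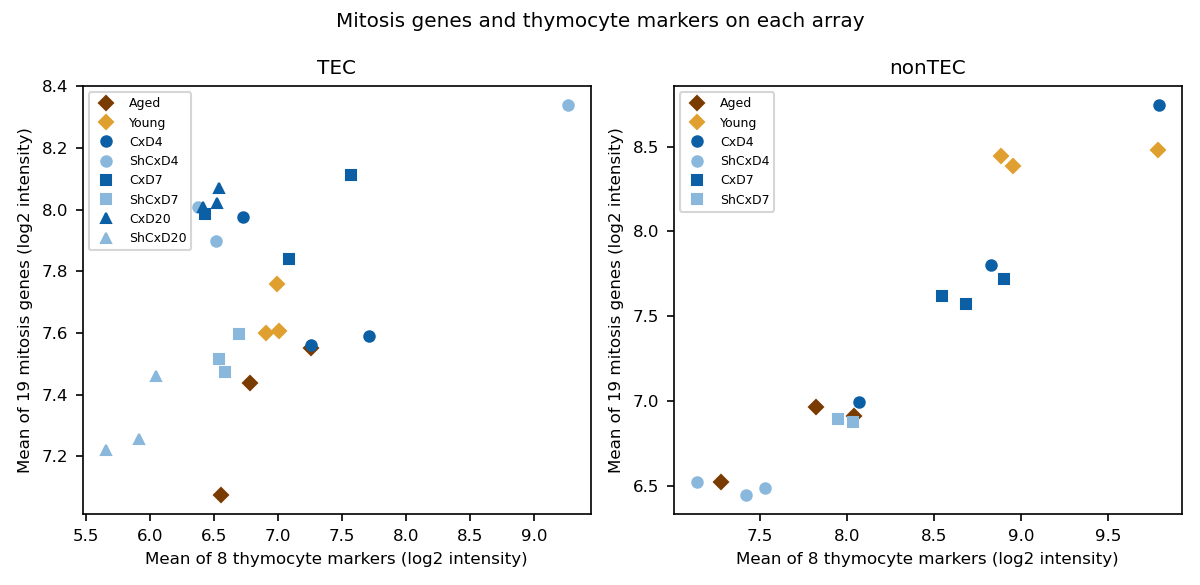
Mean log2 normalized intensity of the 19 mitosis genes (y axis) against that of the 8 thymocyte markers measured in both fractions (x axis), 1 point per array, in TEC (left) and nonTEC (right), with colour and shape for the group. In nonTEC the CxD4 arrays lie at 9.79, 8.82 and 8.07 for the markers and at 8.74, 7.80 and 7.00 for the mitosis genes. In TEC, 1 ShCxD4 array lies far to the right at 9.27, against 6.37 and 6.51 on the other ShCxD4 arrays.

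At day 7 the nonTEC differences pointed the same way for most members but rarely passed. In CxD7 nonTEC compared with ShCxD7 nonTEC, 1 of 42 genes rose and 0 fell, where 0.0598% of all genes rose and 0.333% were called. Of the 42 values 38 were above 0, with a median of 0.62, beside 0.02 over all genes, and 15 members had an unadjusted p under 0.05. Of the 18 genes with several probes, 3 had probes of opposite sign (Kif23, Mcm7 and Tyms). The gene that rose was Ccnd1, which read 12.58, 12.61 and 12.67 on the CxD7 arrays, against 11.97 and 11.65 on the ShCxD7 arrays, a rise of 0.81 ± 0.15 (adjusted p = 0.0162). Its call was lost when any 1 of the 5 arrays was left out. Cdk1 read 7.04, 6.87 and 6.79 on the CxD7 arrays, against 5.73 and 5.58 on the ShCxD7 arrays, which did not overlap, at 1.24 ± 0.36 (adjusted p = 0.147). Top2a stood at 1.04 ± 0.47, Mcm5 at 0.73 ± 0.37 and Pcna at 0.04 ± 0.30. The thymocyte mean was 8.54 to 8.90 on the CxD7 arrays, against 7.95 and 8.03 on the ShCxD7 arrays, with 0 of 12 markers called. The day-7 difference minus the day-4 difference was below 0 for 36 of 42 genes, with a median of -0.61. By limma, 0 members and 0% of all 11704 genes passed, and 8 members had an unadjusted p under 0.05. For neither count of unadjusted p-values at day 7 or between the days was the share of all genes computed. Cdk1 stood at -1.08 ± 0.48 and Ccnd1 at 0.73 ± 0.20 (adjusted p = 0.292), so a change between the days was not shown for any member.

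In TEC the castration differences were read at 3 times. At day 4, in CxD4 TEC compared with ShCxD4 TEC, 1 of 41 genes fell and 0 rose, where 0.986% of all genes fell, 1.82% rose and 2.8% were called. This was Kif23 (-1.28 ± 0.31, adjusted p = 0.0372), whose other 2 probes gave 1.75 and 0.29. With the mean of its probes the sign turned, to 0.25. Probes of opposite sign were found for 9 of the 17 genes with several probes. They were Bub1b, Kif23, Mad2l1, Mcm6, Mcm7, Ncapd2, Rrm2, Tk1 and Top2a. Cdk1 read 8.90, 6.55 and 6.67 on the CxD4 TEC arrays, against 9.04, 8.54 and 8.89 on the ShCxD4 arrays, at -1.45 ± 0.43 (adjusted p = 0.0691). CxD4 arrays 2 and 3 carried the low values, and CxD4 array 1 lay within the sham range. Top2a (-1.40 ± 0.63), Mcm5 (-0.41 ± 0.16) and Ccnd1 (-0.09 ± 0.13) did not pass. Without CxD4 array 1 the count was 10, and without ShCxD4 array 1 it was 4. Without CxD4 array 2 or 3, or ShCxD4 array 2 or 3, it was 0. Without the 4 arrays set apart it was also 0, but this left a single castrated array. Of the pan-leukocyte markers 1 of 6 fell, 0 of 8 thymocyte markers were called, and the thymocyte mean was 6.73 to 7.71 on the CxD4 arrays, against 6.37 to 9.27 on the ShCxD4 arrays. The part of these cells in the result was not tested.

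At day 7, all 19 replication genes and 18 of 19 mitosis genes stood above 0 in CxD7 TEC compared with ShCxD7 TEC, but by limma 0 of 41 members passed, as did 0% of all genes. These signs are those of the probe of highest mean. Of the 17 genes with several probes, 5 had probes of opposite sign (Ccnd1, Cdc20, Kif23, Mcm7 and Tk1). The median of the members was 0.42, beside 0.01 over all genes. An unadjusted p under 0.05 was found for 18 members, and the share of all genes with such a p was not computed. The mean over the replication genes was 8.18, 8.2 and 8.19 on the CxD7 arrays, against 7.57, 7.71 and 7.75 on the ShCxD7 arrays, without overlap. The smallest adjusted p was that of E2f1, a transcription factor of G1/S genes. E2f1 read 7.68, 7.63 and 7.81 on the CxD7 arrays, against 6.55, 6.72 and 6.67 on the ShCxD7 arrays, at 1.06 ± 0.18 (adjusted p = 0.0617). Cdk1 (0.33 ± 0.43), Top2a (0.47 ± 0.63), Mcm5 (0.33 ± 0.16) and Ccnd1 (0.15 ± 0.13) did not pass. With tests limited to genes with a group mean above the median of all values, E2f1, Ncapd2, Mcm6 and Lmnb1 passed. Thymocyte markers averaged 6.43 to 7.57 on the CxD7 arrays, against 6.54 to 6.70 on the ShCxD7 arrays, with 0 of 8 called.

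At day 20, 10 of 19 mitosis genes and 2 of 19 replication genes rose in castrated TEC, the latter a share near that of all genes. In CxD20 TEC compared with ShCxD20 TEC, 13 of 41 genes rose and 1 fell, where 10.7% of all genes rose, 6.78% fell and 17.5% were called. The median was 0.82 over the 19 mitosis genes and 0.29 over the 19 replication genes, of which 1 fell, and Lmnb1 rose by 0.54 ± 0.18 (adjusted p = 0.0418). The median over all genes was -0.03. All 3 checkpoint genes rose, and 0 of the 9 licensing and helicase genes were called, whose values ran from -0.27 to 0.38.

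Prc1 read 10.26, 10.25 and 10.06 on the CxD20 arrays, against 9.52, 9.29 and 9.36 on the ShCxD20 arrays, and rose by 0.80 ± 0.15 (adjusted p = 0.000748). Cdc20, the activator of the anaphase-promoting complex, read 9.41, 9.55 and 9.41 on the CxD20 arrays, against 8.55, 8.11 and 8.12 on the ShCxD20 arrays, and rose by 1.20 ± 0.24 (adjusted p = 0.00176). Both pairs of groups were free of overlap. Cenpa rose by 1.29 ± 0.28 (adjusted p = 0.00325) and Aurka by 0.87 ± 0.21 (adjusted p = 0.00651). The replication genes that rose were E2f2 (1.23 ± 0.27, adjusted p = 0.00308) and Pclaf (0.92 ± 0.28, adjusted p = 0.0285). Ccnd1 read 11.46, 11.48 and 11.57 on the CxD20 arrays, against 12.01, 12.05 and 11.84 on the ShCxD20 arrays, and fell by 0.46 ± 0.13 (adjusted p = 0.0188). Cdk1 read 9.18, 8.68 and 8.71 on the CxD20 arrays, against 7.87, 7.56 and 7.94 on the ShCxD20 arrays, which did not overlap, but at 1.07 ± 0.43 it did not pass (adjusted p = 0.0978). Top2a stood at 1.04 ± 0.63 (adjusted p = 0.288) and Mcm5 at 0.35 ± 0.16 (adjusted p = 0.146). Other mitosis genes rose for 7 of 39, among them Anln, which organises the cleavage furrow (1.08 ± 0.18, adjusted p = 0.000400), and Ncaph, a condensin subunit (0.88 ± 0.20, adjusted p = 0.00486). Other replication genes rose for 2 of 30, Clspn (0.77 ± 0.20, adjusted p = 0.0109) and Pold1 (0.45 ± 0.14, adjusted p = 0.0256), a checkpoint mediator and a polymerase subunit. This share was not above that of all genes.

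Other lists moved in the day-20 comparison. Pan-leukocyte markers rose for 4 of 6 genes, myeloid markers for 6 of 7, B-lineage markers for 2 of 6 and erythroid markers for 2 of 4, and 8 of 11 immediate early genes fell. The pan-leukocyte mean was 10.61 to 10.84 on the CxD20 arrays, against 9.64 to 9.94 on the ShCxD20 arrays, and the thymocyte mean 6.41 to 6.54 on the CxD20 arrays, against 5.65 to 6.05 on the ShCxD20 arrays. With the thymocyte mean as a covariate 12 genes were called, and with the pan-leukocyte or the B-lineage mean 0 were. The part of these cells in the result was not tested further. The count was 6 without ShCxD20 array 2, 7 without CxD20 array 1 or 2, 8 without CxD20 array 3 or ShCxD20 array 3, and 11 without ShCxD20 array 1. Prc1, Cdc20, E2f2, Cenpa, Aurka and Bub1b were called in all 6 fits.

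An F-test of whether the castration difference varied among days 4, 7 and 20 in TEC passed for 13 of 41 genes, where 12.3% of all genes passed. They comprised 4 replication genes (E2f2, Pclaf, E2f1 and Mcm5) and 9 mitosis genes. For Aurka the differences were -0.71, 0.27 and 0.87 at days 4, 7 and 20 (adjusted p = 0.00428), and for Prc1 they were -0.24, 0.51 and 0.80 (adjusted p = 0.00530). For E2f2 they were -0.59, 0.70 and 1.23 (adjusted p = 0.00776), whereas for E2f1 they were 0.08, 1.06 and 0.38 (adjusted p = 0.0275). Cdk1 passed (adjusted p = 0.0220), and Top2a (adjusted p = 0.141) and Ccnd1 (adjusted p = 0.0784) did not. The day-20 arrays of both groups stood apart from the rest, so the days are compared here only through the difference within each day. The count was 4 without ShCxD20 array 2, 6 without CxD4 array 2 or 3, 7 without CxD20 array 1 or ShCxD20 array 3, and 19 without CxD4 array 1. With the pan-leukocyte or the B-lineage mean as a covariate it was 0, and with the thymocyte mean 14.

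Castration was then compared between fractions over days 4 and 7, as the mean difference in TEC minus that in nonTEC. For 12 of 41 genes the value was below 0 and passed, and for 0 it was above 0 and passed, where 1.72% of all genes were lower, 3.07% were higher and 4.79% were called. They were 4 replication genes, 7 mitosis genes and Hmgb2 (-2.47 ± 0.63, adjusted p = 0.0210). The values were -2.35 ± 0.42 for Cdk1 (adjusted p = 0.00195), -1.92 ± 0.40 for Pclaf (adjusted p = 0.00655), -1.65 ± 0.31 for Aurka (adjusted p = 0.00268) and -1.07 ± 0.28 for Mcm5 (adjusted p = 0.0240). Prc1 (-1.29 ± 0.29, adjusted p = 0.00933), Pbk (-1.41 ± 0.29, adjusted p = 0.00572), Rrm2 (-1.34 ± 0.33, adjusted p = 0.0165) and E2f2 (-1.23 ± 0.35, adjusted p = 0.0380) passed as well. Top2a (-1.84 ± 0.61, adjusted p = 0.0690) and Ccnd1 (-0.41 ± 0.14, adjusted p = 0.0669) did not pass. The count was 21 without nonTEC CxD4 array 3, 19 without TEC CxD4 array 1, 5 without the 4 TEC arrays set apart, and 0 with the pan-leukocyte covariate.

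The castrated groups of days 4 and 7 (and, in TEC, 20) were also set against the young mice. In nonTEC 8 of 42 genes were still lower than in Young and 0 higher, where 6.98% of all genes were lower and 13.5% were called. These were Mcm6 (-0.83 ± 0.20, adjusted p = 0.00875) and 7 mitosis genes, among them the chosen Kif23 probe (-1.78 ± 0.21, adjusted p = 1.52e-05), Cdk1 (-1.55 ± 0.28, adjusted p = 0.000868), Ncapd2, a condensin subunit (-0.83 ± 0.22, adjusted p = 0.0163), and Aurkb (-0.95 ± 0.27, adjusted p = 0.0223). Top2a also passed at -1.19 ± 0.36 (adjusted p = 0.0338), whereas Mcm5 (-0.33 ± 0.28), Ccnd1 (-0.32 ± 0.11) and Pcna (-0.25 ± 0.23) did not. Leaving out CxD4 array 1 gave 20 calls, CxD4 array 2 or CxD7 array 3 gave 5, and Young arrays 1, 2 and 3 gave 5, 4 and 2 in turn. The chosen Kif23 probe is the one that had not risen with castration, and its other 2 probes stood at -1.09 and -0.94 against Young, neither past the threshold in a fit of all probes. Immune markers were lower than in Young as well, for 7 of 8 pan-leukocyte, 5 of 6 B-lineage and 8 of 9 myeloid genes, as were 3 of 6 fibroblast markers. The pan-leukocyte mean was 8.43 to 9.89 on the CxD4 and 8.68 to 9.13 on the CxD7 arrays, against 10.21 to 10.40 on the Young arrays, and the B-lineage mean 5.66 to 5.78 on the CxD4 and 5.51 to 6.06 on the CxD7 arrays, against 7.46 to 8.66 on the Young arrays. With the pan-leukocyte mean as a covariate 4 genes were called, of which 3 were higher than in Young, Aurka (1.28), Cdc45 (1.0) and Mad2l1 (1.05), and 4 of the 8 turned sign. With the B-lineage mean 0 were called. The part of these cells in the result was not tested further. In TEC the castrated groups of days 4, 7 and 20 were averaged, although the day-20 arrays stood apart on the first principal component. Any offset of the day-20 arrays therefore enters these TEC values. In this comparison, 4 of 41 genes were higher than in Young and 0 lower, where 7.79% of all genes were higher and 14.6% were called. The share of members that were higher was thus near that of all genes. The 4 were Cdc6 (0.87 ± 0.20, adjusted p = 0.00695), Prc1 (0.66 ± 0.12, adjusted p = 0.00186), Tpx2, a spindle assembly factor (1.03 ± 0.24, adjusted p = 0.00797), and Nusap1, a spindle microtubule protein (0.95 ± 0.26, adjusted p = 0.0180). No sham group entered this comparison. The means of the ShCxD4 and ShCxD20 TEC arrays also lay above Young for all 4 genes, and those of the ShCxD7 arrays for Prc1 and Nusap1 only. The part of castration, of surgery and of the day-20 offset in these 4 rises was not tested here. Cdc6 and Tpx2 were dim, below the median of all values (6.73) on every TEC array. With either filter on dim probes, 2 genes were called. Cdk1 (-0.29 ± 0.35), Top2a (-0.03 ± 0.52), Mcm5 (-0.16 ± 0.13) and Ccnd1 (0.12 ± 0.11) did not pass, and without Young array 2 or 3 the count was 2. Erythroid markers were lower than in Young for 3 of 4 genes and pan-leukocyte markers for 1 of 6, and with the pan-leukocyte mean as a covariate 2 genes were called, both higher.

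Sham surgery was set against no surgery in the middle-aged mice. In TEC the sham arrays included those of day 20, so any offset of that day enters the TEC values. By limma 0 of 42 members in nonTEC and 0 of 41 in TEC were called, where 0.188% of all genes in nonTEC (0.145% higher, 0.0427% lower) and 3.2% in TEC (1.27% higher, 1.93% lower) were. An unadjusted p under 0.05 was found for 3 members in nonTEC and for 14 in TEC. The share of all genes with such a p was not computed. The member medians were -0.11 in nonTEC and 0.14 in TEC. In nonTEC, Cdk1 stood at -0.33 ± 0.29, Top2a at 0.02 ± 0.38, Mcm5 at -0.29 ± 0.30, Ccnd1 at -0.10 ± 0.12 and Pcna at 0.01 ± 0.24. In TEC, Cdk1 stood at 0.99 ± 0.35, Top2a at 1.33 ± 0.52, Mcm5 at 0.14 ± 0.13 and Ccnd1 at -0.06 ± 0.11. In TEC the count was 4 without Aged array 1, 3 without Aged array 3 and 1 without ShCxD4 array 3.

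Levels of a gene in TEC and in nonTEC rest on arrays that were normalized separately, so the following values also carry any offset between the 2 sets of arrays. Between Aged TEC and Aged nonTEC, 15 of 41 genes were higher in TEC and 7 lower, where 25.9% of all genes were higher, 36.9% were lower and 62.8% were called. Between Young TEC and Young nonTEC, 19 were lower in TEC and 0 higher, where 38.8% of all genes were lower, 21.7% were higher and 60.4% were called. The share of members that were lower in Young TEC was near that of all genes. In aged mice the genes higher in TEC included Pbk (2.21 ± 0.28, adjusted p = 2.88e-08), Tk1 (1.89 ± 0.27, adjusted p = 2.51e-07), Aurka (1.52 ± 0.30, adjusted p = 4.86e-05), Prc1 (1.39 ± 0.28, adjusted p = 5.78e-05), Cdk1 (1.60 ± 0.41, adjusted p = 0.00113), Mcm2 (1.03 ± 0.25, adjusted p = 0.000676) and Mcm5 (0.63 ± 0.27, adjusted p = 0.0441). The 7 that were lower were Cdc6, E2f1, the chosen probe of Kif23, Mcm4, Cdt1, Tyms and Dek. Of the 17 genes with several probes, 6 had probes of opposite sign in aged mice (Cdc20, Kif23, Mad2l1, Mcm7, Rrm1 and Top2a). In young mice these were 2 genes, Cdc20 and Mad2l1. All 3 checkpoint genes, Cdc20 and Mad2l1 among them, were called higher in aged TEC by the probe of highest mean. In young mice Cdk1 stood at -0.14 ± 0.41, Pbk at 0.30 ± 0.28 and Mcm5 at -0.06 ± 0.27. Cdc6 was lower in TEC at both ages, at -2.28 ± 0.26 in aged mice (adjusted p = 4.84e-09) and -2.70 ± 0.26 in young mice (adjusted p = 1.16e-10), as was the chosen Kif23 probe, at -2.76 ± 0.30 in aged mice (adjusted p = 9.00e-10) and -4.74 ± 0.30 in young mice (adjusted p = 2.35e-15). The other 2 Kif23 probes did not share this: in a fit of all probes they gave -0.59 and 1.57 in aged mice, of which the second passed as higher in TEC, and -1.68 and -0.51 in young mice, of which the first passed. No direction for Kif23 between the fractions is therefore drawn. Ccnd1 (-0.22 ± 0.13) and Top2a (-0.27 ± 0.59) did not pass in aged mice, whereas in young mice Ccnd1 (-1.20 ± 0.13, adjusted p = 1.74e-09) and Top2a (-1.47 ± 0.59, adjusted p = 0.0322) were lower in TEC.

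These counts turned with the immune markers. The pan-leukocyte mean was 9.88 to 10.05 on the Aged TEC arrays, against 7.67 to 8.67 on the Aged nonTEC arrays, and with it as a covariate 19 genes were called in aged mice, 1 higher in TEC (Foxm1, 1.23) and 18 lower. The sign turned for 9 of the 22 genes, Mcm5 (-0.95, adjusted p = 0.0200) and Cdk1 (-0.68, adjusted p = 0.292) among them. With the thymocyte mean 18 were higher and 7 lower, and with the B-lineage mean 5 were higher and 6 lower. In young mice the thymocyte mean was 6.91 to 7.00 on the TEC arrays, against 8.89 to 9.79 on the nonTEC arrays. With it as a covariate 11 genes were called in young mice, of which Cdc20 (1.38), Pbk (1.02), Aurka (1.10) and Mcm2 (0.78) were higher in TEC and 7 lower, whereas with the pan-leukocyte mean 32 were lower and with the B-lineage mean 10. The part of immune cells in the levels of the fractions was not tested further.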

How the data were processed

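RNA of sorted mouse TEC and nonTEC was measured on 41 Illumina arrays (24 TEC, 17 nonTEC). The deposited values are normalized log intensities, read here as log2 and made by the authors for TEC and nonTEC separately. The submitters' processing notes name limma, while no source used here gives the background correction or the normalization method. Of 24671 probes, 20825 had 1 listed gene, 11 had several and 3835 had none, and the probe of highest mean stood for each gene. The members and all gene lists were chosen with earlier results of these data known. Group means were fitted per fraction with limma 3.58.1 in R 4.3.3 (empirical Bayes with an intensity trend, no filter on dim probes), differences between fractions in a fit of all arrays, and p-values were adjusted (Benjamini-Hochberg) over all genes of a fit. The script was tested on simulated data in which all groups had the same spread and genes varied independently. That test therefore does not cover groups of unequal spread, such as CxD4 nonTEC.

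Named in each comparison were up to 4 members of smallest p per class, called chromatin genes, calls against the main direction, and Cdk1, Top2a, Mcm5, Pcna and Ccnd1. Other members were named by role after their values were seen. Of the other pathway genes, the 2 of smallest p per list were named. Same-numbered arrays of compared groups had deviations that correlated at -0.14 to 0.22, and in no comparison above 0.1 for every pair, so the numbers were not treated as pairs. Alternatives were other filters and probe rules, array weights, no trend, other sets of arrays, marker means as covariates (the B-lineage mean was chosen after seeing the data), another control group, and leaving out single arrays. The small number of arrays limits the precision. Figures used matplotlib 3.10.9.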

Additional observations from a re-analysis of the deposited data

Results flagged for a closer look

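In all, 3 sets of values differed between groups by a test of the difference itself. Single arrays that stand apart were not tested for in groups of 2 or 3.

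The age difference differed between TEC and nonTEC for 14 of the 41 genes measured in both, all with a higher value in TEC (adjusted p under 0.05, limma over 10543 genes), where 6.26% of all genes were higher and 9% were called. With the B-lineage covariate 0 were called. The log2 values were 2.08 for Tk1, 0.98 for Ccnd1, 1.53 for Rrm2, 1.0 for Mcm7, 1.51 for Foxm1, 1.96 for Prc1, 1.92 for Pbk and 1.98 for Kif23. Of the 14, 8 were called whichever array was left out. The probes of Tk1, Ccnd1, Foxm1 and Ncapd2, all among these 8, differed in sign with age in TEC.

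The castration difference of days 4 and 7 differed between TEC and nonTEC for 12 of 41 genes, all with a lower value in TEC, where 1.72% of all genes were lower and 4.79% were called. The count was 8 to 21 on leaving out 1 array and 0 with the pan-leukocyte covariate. The log2 values were -2.47 for Hmgb2, -2.35 for Cdk1, -1.92 for Pclaf, -1.65 for Aurka, -1.41 for Pbk, -1.34 for Rrm2, -1.29 for Prc1, -1.23 for E2f2 and -1.07 for Mcm5. Hmgb2, E2f2 and Mcm5 were not among the 8 genes called whichever array was left out. In TEC, Hmgb2 read 7.76, 5.45 and 5.05 on CxD4 arrays 1, 2 and 3, and 7.92, 7.84 and 5.56 on the CxD7 arrays.

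The castration difference varied among days 4, 7 and 20 in TEC for 13 of 41 genes by a limma F-test, where 12.3% of all genes passed. The count was 4 to 19 on leaving out 1 array and 0 with the pan-leukocyte or B-lineage covariate. The adjusted p was 0.00428 for Aurka, 0.00530 for Prc1, 0.00776 for E2f2, 0.0120 for Cenpa, 0.0176 for Cdc20, 0.0239 for Pclaf, 0.0275 for E2f1 and 0.0420 for Mcm5.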

How the results depend on the processing

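Of 394 alternative counts of called genes, 261 lay within 1.5 times the reported count and 133 did not. Covariates that differ between groups take up part of the group difference by construction, leaving out arrays or fitting only the arrays compared leaves fewer arrays, and for the other settings the cause was not tested. For age in nonTEC (32), the count was 4 with the thymocyte covariate and 0 with the pan-leukocyte or B-lineage covariate. For age in TEC (2) it was 5 with array weights, 0 with only the arrays compared, 4, 0 and 0 with the thymocyte, pan-leukocyte and B-lineage covariates, 0 with sham arrays as the older group and 10 without the 4 TEC arrays set apart (Aged array 3, CxD4 arrays 2 and 3, ShCxD4 array 3). For the age difference between fractions (14) it was 4 with only the arrays compared, 7, 4 and 0 with the 3 covariates, and 26 with sham arrays. For TEC at day 4 (1) it was 12 with array weights, 0 with only the arrays compared, 3 with all 41 arrays in 1 fit, 4, 0 and 0 with the covariates, 0 with unoperated controls and 0 without the 4 arrays (1 castrated array left). For TEC at day 7 (0) it was 4 and 3 with genes above the median or the 65th percentile, 1 with the mean of all probes, 16 with weights, 1 without the trend, 3 with only the arrays compared, 3 in 1 fit, 4, 1 and 2 with the covariates, 6 with unoperated controls and 9 without the 4 arrays. For TEC at day 20 (14) it was 29 with weights, 25 with only the arrays compared, 8 in 1 fit, and 0 with the pan-leukocyte or B-lineage covariate. For nonTEC at day 4 (26) it was 7 with only the arrays compared, 0 with the thymocyte or pan-leukocyte covariate and 16 with unoperated controls. For nonTEC at day 7 (1) it was 0 with the mean of all probes, without the trend or with the thymocyte covariate, 9 with weights, 15 with only the arrays compared and 9 with unoperated controls. For the days in nonTEC (0) it was 4 with weights. For the days in TEC (13) it was 28 with weights, 6 in 1 fit, 0 with the pan-leukocyte or B-lineage covariate and 6 without the 4 arrays. For castration between fractions (12) it was 27 with weights, 0 and 6 with the pan-leukocyte and B-lineage covariates, and 5 without the 4 arrays. For sham against unoperated TEC (0) it was 2 with the mean of all probes, 4 with weights, 2 in 1 fit and 5 without the 4 arrays. For castrated against young nonTEC (8) it was 5 with the mean of all probes, 19 with weights and 4, 4 (3 higher than in Young) and 0 with the covariates. For castrated against young TEC (4) it was 2 with either stricter filter, 8 with weights and 2 with the pan-leukocyte or B-lineage covariate. For TEC against nonTEC it was, in aged mice (22, of which 15 higher in TEC), 13 with only the arrays compared, 11 with the B-lineage covariate and 19, of which 1 higher, with the pan-leukocyte covariate, and in young mice (19), 29 with weights, 29 with only the arrays compared, and 11 (4 higher in TEC), 32 and 10 with the covariates.

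Leaving out 1 array at a time gave 22 to 31 for age in nonTEC, 0 to 4 for age in TEC, 8 to 14 for the age difference, 0 to 10, 0 to 0 and 6 to 11 for TEC at days 4, 7 and 20, 6 to 33 and 0 to 0 for nonTEC at days 4 and 7, 0 to 1 for the days in nonTEC, 4 to 19 for the days in TEC, 8 to 21 for castration between fractions, 0 to 0 and 0 to 4 for sham against unoperated nonTEC and TEC, 2 to 20 and 2 to 5 for castrated against young nonTEC and TEC, and 17 to 23 and 17 to 20 for TEC against nonTEC in aged and young mice. With the replicate number as a block, the count was 4 for TEC at day 4, 1 for sham against unoperated TEC and 3 for age in TEC, and every other count stayed within 1.5 times.

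Among called genes named by the rule, signs turned with the thymocyte covariate for Mcm5 with age in nonTEC (0.0887), with the pan-leukocyte covariate for age in nonTEC (Pclaf 0.57, Mcm7 0.0308, Hmgb2 0.92, Lmnb1 0.24, Mcm5 1.0), age in TEC (Pclaf 0.0165, Tyms 0.0349), TEC at day 20 (Pclaf -0.13), nonTEC at day 4 (Mcm5 -0.0269), castration between fractions (Mcm5 0.0783, E2f2 0.34), castrated against young nonTEC (Aurkb 0.0939, Top2a 0.25) and aged TEC against nonTEC (Prc1 -0.11, Mcm5 -0.95, Cdk1 -0.68), with the B-lineage covariate for TEC at day 20 (Cenpa -0.24, Lmnb1 -0.15), and with the mean of all probes for Kif23 in TEC at day 4 (0.25).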
